A study of Mus musculus with 6 samples.

Results

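The 32 chondrocyte genes described here encode the matrix, the regulators and the joint proteins of the cartilage models that prefigure the digit bones. They were chosen by name, as genes of cartilage biology, but with earlier results of these data known. Each of the 32 was found among the 34989 genes measured in mouse handpads, the paddle-shaped ends of the embryonic forelimbs. All 32 also passed the filter on low counts that left 16938 genes for testing. The handpads came from C57BL/6 embryos at E14.5 (days of embryonic development), and 3 wild-type samples were compared with 3 samples of genotype Grhl3KO, a knockout of Grhl3, a grainyhead-like factor that works in the surface epithelium. The labels name no other allele or agent in either group, and they give neither the deleted part of Grhl3 nor the number or sex of the embryos behind a sample. They do not say that replicates were separate embryos, so a p-value here weighs only the scatter among the 6 libraries, part of which may be technical.

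Digit cartilage forms when limb mesenchyme condenses under the transcription factor Sox9, whose partners Sox5 and Sox6 help it to switch on the cartilage matrix genes. The matrix is a network of thin fibrils of collagens II, IX and XI that holds a gel of aggrecan bound to hyaluronan by link proteins, with matrilins and COMP as adaptors. Parathyroid hormone-like protein, encoded by Pthlh, and its receptor Pth1r hold chondrocytes back from hypertrophy, the last step before bone forms, and Gdf5 marks the interzones where joints split the cartilage.

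Polyadenylated RNA was read with a stranded Illumina kit, and each library held 38052692 to 56037639 estimated counts. Levels are in CPM, a gene's counts as a share of its library after scaling between libraries. The knockout libraries held 3.11, 2.86 and 2.95 CPM of Grhl3 against 14.3, 45.7 and 18.5 CPM in wild-type, as the labels say. A sum over 4 Y-linked genes was 289.6 and 341.2 CPM in wild-type libraries 2 and 3, but 5.36 CPM in wild-type library 1 and 3.38 to 4.43 CPM in the knockout libraries. Wild-type library 1 also drew its counts from shorter transcripts, with a mean length of 3148 bases per count where the other 5 libraries had 3347 to 3625 bases. Genes of limb mesenchyme, a main tissue of the handpad, were present at a mean of 8.05 to 8.28 log2 CPM. All 6 genes taken to mark chondrocytes (Sox9, Col2a1, Acan, Matn1, Col9a1 and Hapln1) were measured in every library. These 6 belong to the 32 genes described here, so they are no separate check of the tissue.

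Chondrocyte genes lay mostly lower in the knockout handpads, with a median log2 fold change of -0.45, but no single gene passed the test. Summed over the 32 genes, the wild-type libraries held 6776, 9176 and 7369 CPM and the knockout libraries 6357, 6449 and 4356 CPM. All 3 knockout sums were below all 3 wild-type sums, and knockout library 3 was far below the rest. Without Col2a1, the most abundant member, the sums were 4800, 6292 and 5596 CPM against 4535, 4674 and 3117 CPM, again without overlap. In these bulk samples, fewer chondrocytes and less of these RNAs per chondrocyte cannot be told apart.

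None of the 32 genes was called at an adjusted p under 0.05 in edgeR's quasi-likelihood test over all genes, where 0.431% of genes were called in either direction and 0.0827% as lower. At an unadjusted p under 0.05 in edgeR, 11 of the 32 genes were lower and 0 were higher, against 3.41% of all genes lower and 3.81% higher. DESeq2 called 3 of them as lower (Chad, Col27a1 and Comp), against 0.514% of all genes. In 10 of the 32 genes every knockout library lay below every wild-type library, a pattern that 6.16% of all genes showed, and in 0 genes every knockout library lay above, as in 6.77% of all genes. Of the 32 genes, 31 had a negative log2 fold change (knockout minus wild-type), against 51.2% of all genes, and Gdf5 was the exception. The median log2 fold change was -0.45 over the 32 genes and -0.004 over all genes tested.

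The lower levels were spread unevenly over the libraries. Knockout library 3 was the lowest of the 6 for 23 of the 32 genes and lay below every wild-type library for 28 of them, against 22.1% of all genes. Knockout library 1 lay below every wild-type library for 16 of the 32 genes, against 21.9% of all genes, and knockout library 2 for 14, against 19.3%. Without knockout library 3 the median of the 32 genes was -0.305, with 8 genes lower at an unadjusted p under 0.05 in edgeR, against 2.62% of all genes in that fit. Wild-type library 2 was the highest of the 6 for 13 genes, and without it the median was -0.335.

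**Figure D1:**
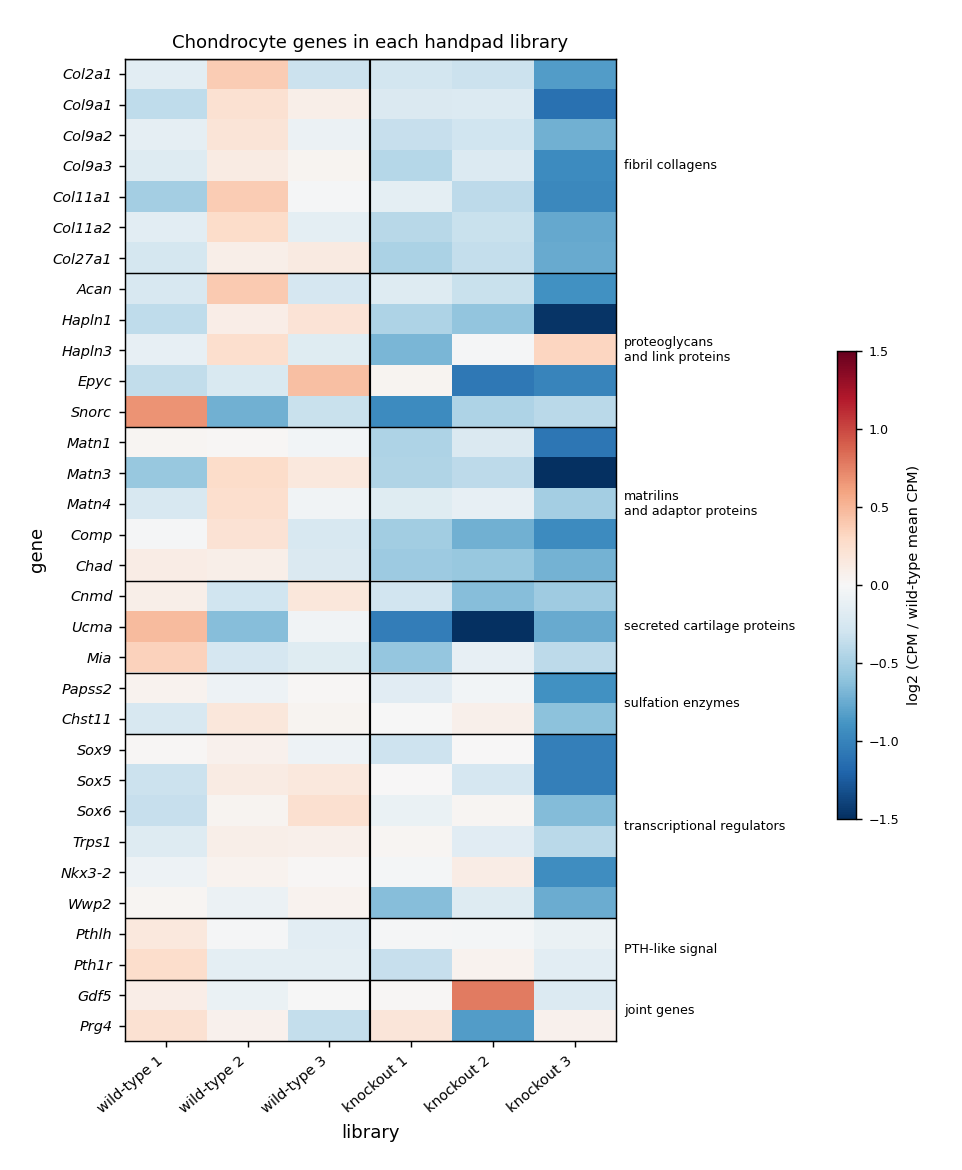
Heat map of the 32 chondrocyte genes (rows, grouped by role) in the 6 handpad libraries (columns). Colour is the log2 ratio of a library's CPM to the mean CPM of the 3 wild-type libraries, from -1.5 (dark blue) to 1.5 (dark red). Blue dominates the knockout columns and is deepest in knockout library 3, the lowest library for 23 of the 32 genes.

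Col2a1 and the 3 collagen IX genes were the most abundant of the 32 genes per kilobase. Col2a1, which encodes the main fibril collagen of cartilage (ENSMUSG00000022483.17, mm10 chromosome 15, 97975602 to 98004695, minus strand), measured 1975, 2884 and 1774 CPM in wild-type and 1822, 1774 and 1239 CPM in knockout libraries. Wild-type library 2 was high and knockout library 3 low, while the other 4 libraries lay close together and the groups met at 1774 CPM. Its log2 fold change was -0.46 (SE 0.23, adjusted p = 0.772, edgeR), but -0.216 without wild-type library 2 and -0.298 without knockout library 3. Per kilobase of the longest coding transcript, Col2a1 stood at 433 CPM in the wild-type mean, followed by Col9a3 at 171 CPM, Col9a1 at 169 CPM and Col9a2 at 154 CPM.

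Collagen IX coats the surface of these fibrils and is assembled from the products of Col9a1, Col9a2 and Col9a3. Col9a2 (chromosome 4, 121039385 to 121055322) measured 411, 517 and 425 CPM in wild-type and 355, 365 and 274 CPM in knockout libraries, and Col9a3 (chromosome 2, 180597790 to 180622189) measured 457, 570 and 537 against 387, 452 and 271 CPM. Neither gene's groups overlapped, although the Col9a3 value of knockout library 2 came within a few CPM of wild-type library 1. Col9a1 (chromosome 1, 24177610 to 24252684) did overlap, at 495, 757 and 686 CPM against 555, 563 and 298 CPM, because wild-type library 1 was low. The log2 fold changes of the 3 genes were -0.44 for Col9a2, -0.49 for Col9a3 and -0.45 for Col9a1, with SE of 0.15, 0.19 and 0.26. The ratio of Col9a1 to Col9a2 per kilobase was 1.09 ± 0.158 in wild-type and 1.07 ± 0.204 in knockout libraries (SD, n = 3 per group), so the balance of the chains differed by less than the spread between libraries.

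Collagen XI forms the core of the fibril and sets its diameter. Col11a2 (chromosome 17, 34039437 to 34066685) measured 395, 533 and 398 CPM in wild-type and 332, 350 and 259 CPM in knockout libraries, with no overlap, at a log2 fold change of -0.50 and SE 0.16 (edgeR adjusted p = 0.459). Col11a1 (chromosome 3, 114030540 to 114220718) measured 577, 1071 and 810 against 743, 626 and 419 CPM. Its groups overlapped widely, since wild-type library 1 was lower than both knockout libraries 1 and 2.

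Col27a1, a minor fibrillar collagen of developing cartilage (chromosome 4, 63214004 to 63334991), measured 252, 323 and 334 CPM in wild-type and 218, 236 and 180 CPM in knockout libraries. All its knockout values were below its wild-type values, and its log2 fold change of -0.52 (SE 0.15) had an adjusted p of 0.338 in edgeR and 0.0392 in DESeq2, within a range of 0.0392 to 0.873 over all alternatives. Wild-type library 1 was the lowest of its group, and without it Col27a1 passed edgeR's test at an adjusted p of 0.0472. In 4 of the 7 fibril collagens every knockout library lay below every wild-type library, against 6.16% of all genes. Across the 7 genes the log2 fold changes ran from -0.52 to -0.44, with a median of -0.46. That narrow range depended on single libraries: it was -0.472 to -0.216 without wild-type library 2 and -0.417 to -0.208 without knockout library 3. With a term for Y-linked expression it was -0.332 to 0.046.

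**Figure D2:**
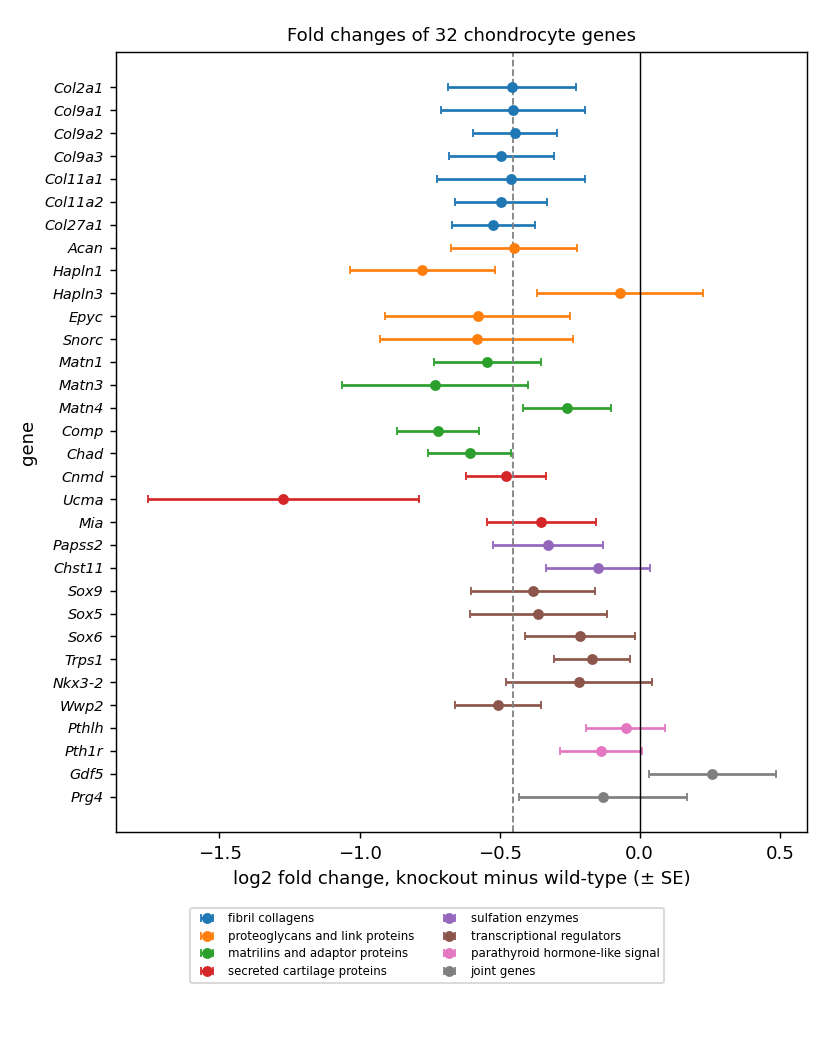
Log2 fold changes (knockout minus wild-type, horizontal axis) of the 32 genes with their standard errors as bars, coloured by role. The solid line marks 0 and the dashed line the median of the 32 genes, -0.45. The 7 fibril collagens sit between -0.52 and -0.44, and the parathyroid hormone-like genes and Prg4 nearer to the solid line. Gdf5 is at 0.26, and Ucma is farthest out at -1.27 with the widest bar.

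Col2a1 is read in 2 main forms that differ by exon 2, which encodes a cysteine-rich stretch of the N-propeptide. The form with exon 2 is known from cells on the way to becoming chondrocytes and from non-cartilage tissues, and the form without it from differentiated chondrocytes. The exon lies at chr15:98000403-98000606 on the minus strand (mm10). It is 204 bases long, all coding, and holds 67 whole codons. It is shown as transcribed, 5′ to 3′, because it is the only difference between the forms within the protein, with its 10 cysteine codons in capitals. The 2 junction sequences below it are what tells the forms apart in reads, with the last 12 bases of exon 1 in lower case and the next exon in capitals.
Col2a1 exon 2: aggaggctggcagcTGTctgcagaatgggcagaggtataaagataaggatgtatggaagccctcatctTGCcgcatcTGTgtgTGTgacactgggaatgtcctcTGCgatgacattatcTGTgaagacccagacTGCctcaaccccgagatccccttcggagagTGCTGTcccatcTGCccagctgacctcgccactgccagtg
Form with exon 2, exon 1 to exon 2: gccaggatgcccAGGAGGCTGGCA
Form without exon 2, exon 1 to exon 3: gccaggatgcccGAAAATTAGGGC

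Transcripts with exon 2 took 8.39%, 32.3% and 28.2% of the Col2a1 counts in wild-type and 34.4%, 21.8% and 15.2% in knockout libraries. The form without exon 2 was therefore the major one in all 6 libraries, and the ranges of the groups overlapped almost fully. The means were 23.0% ± 12.8 in wild-type and 23.8% ± 9.74 in knockout libraries (SD, n = 3 per group; exact two-sided permutation p = 0.9, where 3 against 3 libraries cannot go below 0.1). The whole gene held 68100 to 143776 counts per library, but only reads that touch the parts where the forms differ inform the share. The other reads were divided by kallisto, and the counting error of a share was not estimated. Shares of TPM, which correct for transcript length, gave 27.0% and 28.8%.

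The upstream and downstream starts of Col9a1 gave a like picture. The long form encodes an added amino-terminal globular domain and is known as the form of cartilage, and the short form begins 17593 bases further on in the RefSeq starts and is known from the eye. The 250 bases before each start are printed because the short and long forms are read from them (RefSeq, GRCm38.p6, plus strand). They lie at chr1:24177360-24177609 before the long form and at chr1:24194953-24195202 before the short form, whose start differs by 16 bases from that of the transcript counted. No capitals are used, as no SOX-type motif (below) was found in either.
Col9a1 long form, upstream: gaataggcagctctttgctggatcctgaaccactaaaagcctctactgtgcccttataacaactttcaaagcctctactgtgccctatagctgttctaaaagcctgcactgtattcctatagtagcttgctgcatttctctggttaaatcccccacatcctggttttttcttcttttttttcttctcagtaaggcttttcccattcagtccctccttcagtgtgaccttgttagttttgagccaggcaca
Col9a1 short form, upstream: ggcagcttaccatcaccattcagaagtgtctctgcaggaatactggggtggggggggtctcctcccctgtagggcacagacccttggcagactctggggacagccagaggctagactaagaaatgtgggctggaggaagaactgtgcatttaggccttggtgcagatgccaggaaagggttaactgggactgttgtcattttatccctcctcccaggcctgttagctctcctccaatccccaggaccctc

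The sequence before the long form holds 43.6% G and C and that before the short form 56.0%. The long form's share of the 2 forms was 22.6%, 69.1% and 54.4% in wild-type and 68.9%, 51.1% and 32.9% in knockout libraries, with an exact two-sided permutation p of 1.0. Wild-type library 1 had the lowest share and knockout library 3 the next lowest, the order also seen for exon 2 of Col2a1. In CPM the short form measured 382, 234 and 312 in wild-type and 173, 275 and 200 in knockout libraries, and the long form 112, 523 and 373 against 382, 287 and 98.2. The low Col9a1 level of wild-type library 1 thus came with few counts of the long form and many of the short form.

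The same libraries were low for the full-length forms of 2 other long genes. The full-length aggrecan transcript took 64.1%, 84.3% and 73.5% of the Acan pair in wild-type and 86.6%, 73.2% and 70.2% in knockout libraries, and the full-length Col11a1 transcript 56.8%, 86.3% and 77.0% against 87.6%, 71.5% and 71.3%. Wild-type library 1 was the lowest in both, and it also had the shortest estimated mean fragment, 401 bases against 419 to 436 bases, beside its low mean transcript length per count. For the 4 pairs of forms the difference between genotypes was smaller than the spread within either, and the part that fragment or transcript length plays in the shares was not tested.

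**Figure D3:**
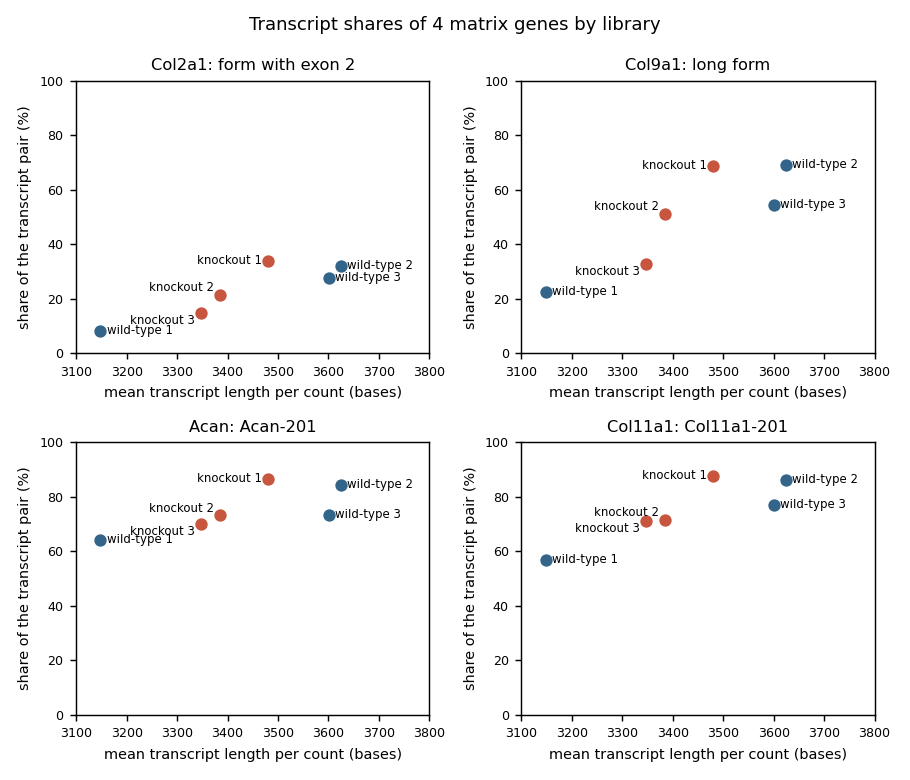
Share of the longer form within a pair of transcripts (vertical axis, percent of the pair's counts) against the mean transcript length per count of each library (horizontal axis, bases) for Col2a1, Col9a1, Acan and Col11a1, with wild-type libraries in blue and knockout libraries in red. In all 4 plots wild-type library 1, at 3148 bases, has the lowest share, and the 2 genotypes overlap in each.

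Among the proteoglycans and link proteins, Hapln1 differed most. It encodes link protein, which clamps aggrecan to hyaluronan (chromosome 13, 89539796 to 89611652), and measured 208, 290 and 312 CPM in wild-type and 196, 180 and 97.3 CPM in knockout libraries. Its groups did not overlap in CPM, although wild-type library 1 and knockout library 1 were close, and its log2 fold change was -0.78 (SE 0.26, adjusted p = 0.462, edgeR). In TPM they did overlap, as wild-type library 1, at 35.29, lay below knockout libraries 1 and 2, at 44.07 and 39.15. Acan, which encodes aggrecan (chromosome 7, 79053483 to 79115099), measured 212, 328 and 211 against 219, 198 and 134 CPM. Knockout library 1 lay above 2 of the wild-type libraries, so the groups overlapped, and the log2 fold change was -0.45 (SE 0.23, adjusted p = 0.774, edgeR). Per kilobase, Hapln1 stood at 1.43 ± 0.412 times Acan in wild-type and 1.09 ± 0.129 times in knockout libraries (SD, n = 3), and the ranges of that ratio overlapped.

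Epyc and Snorc, small proteoglycans of cartilage, had log2 fold changes of -0.58 each with SE of 0.33 and 0.34, and both overlapped between the groups. Epyc measured 14.3, 15.7 and 25.2 CPM in wild-type and 19.0, 8.72 and 9.23 CPM in knockout libraries, and 40.6% of its exonic bases overlap an opposite-strand gene. Snorc measured 11.9, 4.51 and 5.90 CPM against 3.86, 5.39 and 5.62 CPM. Its wild-type mean rested on library 1, while wild-type library 2 lay within the knockout range and library 3 just above it, and without library 1 the log2 fold change was -0.067. Hapln3, a link protein not restricted to cartilage, was low, with 51 to 114 counts per library, at 1.47 to 1.99 CPM in wild-type and 1.04 to 2.07 CPM in knockout libraries, with a log2 fold change of -0.07.

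The matrilins and adaptor proteins had the lowest median of the roles with 5 or more genes, -0.61, and held the smallest p-value of all 32 genes. That gene was Comp, which encodes a protein of the thrombospondin family that links collagen fibrils (ENSMUSG00000031849.9, chromosome 8, 70373558 to 70382066). It measured 61.2, 72.5 and 52.8 CPM in wild-type and 43.4, 37.6 and 32.3 CPM in knockout libraries. The lowest wild-type library was clearly above the highest knockout library, and the group means were 62.2 ± 9.89 and 37.8 ± 5.56 CPM (SD, n = 3). Its log2 fold change of -0.72 (SE 0.15) had an unadjusted p of 0.00106 and an adjusted p of 0.128 in edgeR, and the alternatives gave adjusted p-values between 0.00123 (DESeq2) and 0.816 (limma on TPM). In the authors' deposited table, which used a likelihood ratio test, Comp has a log2 fold change of -0.72 and an FDR of 0.00261.

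Chad, which encodes chondroadherin, a leucine-rich protein that binds collagen and chondrocytes (chromosome 11, 94565047 to 94569127), had the next smallest p-value. It measured 10.4, 10.1 and 8.22 CPM in wild-type and 6.56, 6.45 and 5.86 CPM in knockout libraries. The 3 knockout libraries lay within a single CPM of each other and below all wild-type libraries, and the log2 fold change was -0.61 (SE 0.15, adjusted p = 0.22, edgeR). DESeq2 gave Chad an adjusted p of 0.0159, in a range of 0.0159 to 0.618 over all alternatives.

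Matn1, the matrilin of mature cartilage (chromosome 4, 130944385 to 130955475), was nearly constant in wild-type, at 120, 119 and 115 CPM, and measured 85.7, 102 and 55.9 CPM in knockout libraries. Its groups did not overlap, yet the knockout libraries were spread widely, and the log2 fold change was -0.54 (SE 0.19, adjusted p = 0.493, edgeR). Matn3 measured 41.9, 75.2 and 69.4 CPM against 45.5, 47.4 and 19.6 CPM. Its log2 fold change of -0.73 was larger than that of Matn1, but wild-type library 1 lay below knockout libraries 1 and 2. Matn4, the most abundant matrilin per kilobase at 133 CPM in the wild-type mean, showed only -0.26 on the log2 scale (SE 0.16; edgeR adjusted p = 0.848).

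**Figure D4:**
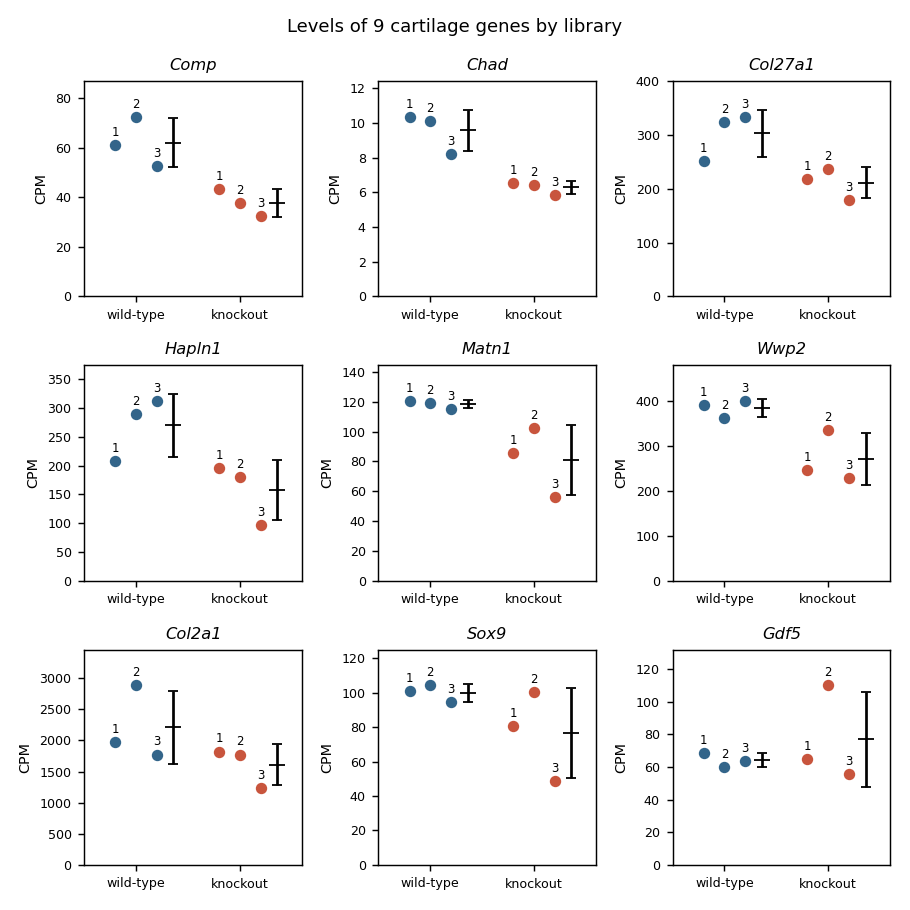
CPM of 9 genes in each library (points, numbered by replicate, blue for wild-type and red for knockout) with the mean and SD of each group of 3 libraries in black. Comp, Chad, Col27a1, Hapln1, Matn1 and Wwp2 do not overlap between the groups, while Col2a1, Sox9 and Gdf5 do. Every vertical axis starts at 0.

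The 3 secreted cartilage proteins all had negative log2 fold changes, at levels that ranged widely. Cnmd encodes chondromodulin, which keeps vessels out of cartilage (chromosome 14, 79637690 to 79662170), and measured 98.8, 75.9 and 105 CPM in wild-type and 76.5, 59.7 and 64.6 CPM in knockout libraries. Only the pair of wild-type library 2 and knockout library 1 kept its groups from separating, and the log2 fold change was -0.48 (SE 0.14, adjusted p = 0.385, edgeR). Ucma, which encodes a small secreted protein of resting cartilage, had the largest fold change of the 32 genes, -1.27 (SE 0.48, adjusted p = 0.568, edgeR). It rested on 59 to 97 counts per wild-type library and 13 to 60 counts per knockout library, or 2.56, 1.18 and 1.77 CPM against 0.893, 0.274 and 1.09 CPM. The groups did not overlap, but the gap between the nearest libraries was small beside the spread in either group. Mia, a secreted protein first found in melanoma cells, had a log2 fold change of -0.35, and 41.2% of its exonic bases overlap another gene on the same strand, so its counts are uncertain.

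Papss2 makes the activated sulfate that aggrecan's chains need, and Chst11 transfers sulfate to chondroitin. Papss2 measured 125, 114 and 122 CPM in wild-type and 107, 117 and 64.2 CPM in knockout libraries. Knockout libraries 1 and 2 were near or within the wild-type range and only library 3 was far below it. Chst11 was closer still, with 51.0 to 67.9 CPM in wild-type and 39.3 to 63.7 CPM in knockout libraries and a log2 fold change of -0.15.

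The 6 transcriptional regulators had a median log2 fold change of -0.29. Sox9, the master regulator of cartilage (ENSMUSG00000000567.5, chromosome 11, 112782224 to 112787760), measured 101, 104 and 94.4 CPM in wild-type and 80.8, 100 and 48.9 CPM in knockout libraries. Knockout library 2 was inside the narrow wild-type range, library 1 somewhat below it and library 3 far below it. The log2 fold change was -0.38 (SE 0.22, adjusted p = 0.83, edgeR), with -0.14 without knockout library 3 and -0.626 without knockout library 2. Per kilobase, Sox9 stood at 0.0578 ± 0.0115 of Col2a1 in wild-type and 0.0577 ± 0.0109 in knockout libraries (SD, n = 3), so the regulator and its target kept the same proportion within the spread.

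Sox5 and Sox6, the partners of Sox9, measured 40.7, 55.3 and 57.0 against 51.0, 43.0 and 25.1 CPM, and 48.3, 63.0 and 72.1 against 57.0, 62.3 and 39.0 CPM. Both overlapped between the groups and had their lowest value in knockout library 3. Sox5 shares 9.25% of its exonic bases with an opposite-strand gene. Trps1, a GATA-type repressor, had a log2 fold change of -0.17 (SE 0.14), and Nkx3-2, a homeobox repressor of hypertrophy, -0.22 (SE 0.26). For Nkx3-2 only knockout library 3, at 2.86 CPM, lay apart from the other 5 libraries at 5.18 to 5.90 CPM.

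Wwp2 was the regulator that differed most. It encodes a ubiquitin ligase and hosts the cartilage microRNA miR-140 in an intron (ENSMUSG00000031930.11, chromosome 8, 107436365 to 107558595). It measured 391, 363 and 400 CPM in wild-type and 247, 337 and 229 CPM in knockout libraries. The groups did not overlap in CPM, with knockout library 2 nearest to wild-type, and the log2 fold change was -0.51 (SE 0.15, adjusted p = 0.391, edgeR). In TPM the groups of Wwp2 met, at 141.6 in wild-type library 1 and 141.7 in knockout library 2. Its 2 main transcripts, the full-length form that starts at 107436365 and a shorter form that starts at 107545012, both lay lower on average, at 200 ± 16.6 against 146 ± 26.6 CPM and 128 ± 8.14 against 96.1 ± 25.9 CPM (SD, n = 3). The full-length form took 60.9% of the pair in wild-type and 60.5% in knockout libraries, so the 2 starts stayed in proportion. The exact two-sided permutation p of that share was 0.8.

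For the signal that restrains hypertrophy, ligand and receptor overlapped between the groups. Pthlh, the ligand, measured 8.27, 7.28 and 6.65 CPM in wild-type and 7.29, 7.22 and 6.93 CPM in knockout libraries, or -0.05 on the log2 scale (SE 0.14; edgeR adjusted p = 0.994). Pth1r, its receptor, measured 152, 115 and 115 against 100, 132 and 114 CPM, or -0.14 on the log2 scale (SE 0.15; edgeR adjusted p = 0.959), and at -0.399 with a term for Y-linked expression (edgeR adjusted p = 0.254, in a range of 0.216 to 1.0 over the alternatives). The knockout values of Pthlh all lay inside the wild-type range. Per kilobase the receptor stood at 11.9 ± 0.94 times the ligand in wild-type and 11.2 ± 1.59 times in knockout libraries (SD, n = 3).

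The 2 joint genes overlapped between the groups. Gdf5, the growth factor of joint interzones (ENSMUSG00000038259.4, chromosome 2, 155941023 to 155945367), measured 68.8, 59.9 and 63.8 CPM in wild-type and 65.1, 110 and 55.5 CPM in knockout libraries. Its positive log2 fold change of 0.26 (SE 0.23; edgeR adjusted p = 0.937) came from knockout library 2, and without that library it was -0.093. An opposite-strand gene overlaps 40.3% of the exonic bases of Gdf5, and the strand setting of the authors' counting is not given in the sources used here. Smaller opposite-strand overlaps, of 2.88% to 6.07% of exonic bases, touch Col9a3, Matn4, Prg4 and Pth1r. Prg4, which encodes the joint lubricant lubricin, was barely present, with a mean of 2.57 ± 0.517 CPM over the wild-type libraries and 2.34 ± 0.795 CPM over the knockout libraries (SD, n = 3).

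Cartilage genes outside these 32 were counted in 5 further lists of 114 genes, of which 110 were tested. In edgeR 0 of the 110 were called in either direction. At an unadjusted p under 0.05 there were 23 lower and 4 higher, beside shares of 3.41% and 3.81% over all genes. DESeq2 called 8 lower and 1 higher, beside shares of 0.514% and 1.25%. The median log2 fold change was -0.13, with 75 negative and 35 positive genes, so these lists lay nearer to all genes than the 32 did.

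Hypertrophic cartilage and bone onset genes had the lowest median, -1.22 over 10 tested genes, all negative. At an unadjusted p under 0.05 in edgeR 7 were lower, against 3.41% of all genes. In 5 of the 10, among them the genes below, every knockout library lay below every wild-type library, against 6.16% of all genes. The list mean was 5.23, 3.44 and 4.76 log2 CPM in wild-type and 2.23, 3.37 and 2.79 log2 CPM in knockout libraries. Wild-type library 2 thus lay close to knockout library 2. Col10a1, the collagen of hypertrophic chondrocytes, measured 98.6, 25.7 and 90.8 CPM in wild-type and 11.2, 19.3 and 5.35 CPM in knockout libraries (log2 fold change -2.59, SE 0.57, adjusted p = 0.158, edgeR). Panx3, a channel of hypertrophic cells, measured 33.2, 19.9 and 25.2 against 9.66, 14.3 and 5.99 CPM (log2 fold change -1.39, adjusted p = 0.16, edgeR). Both genes were lowest among the wild-type libraries in library 2, which was the highest for Col2a1.

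The median was -0.08 over 25 other matrix genes and -0.08 over 28 enzymes of cartilage secretion, glycan synthesis and collagen folding. Prelp, a leucine-rich matrix protein, measured 19.9, 19.8 and 20.6 CPM in wild-type and 13.5, 15.1 and 13.7 CPM in knockout libraries, a clear gap with an adjusted p of 0.122 in edgeR. Otor, a relative of Mia, went the other way with a log2 fold change of 1.21 (adjusted p = 0.165, edgeR). Among the enzymes the smallest p-values belonged to Csgalnact1, which builds chondroitin chains, and Sec23a, which carries procollagen out of the endoplasmic reticulum, at -0.36 and -0.31 on the log2 scale (edgeR adjusted p = 0.389 and 0.493).

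Among 29 other regulators and receptors, with a median of -0.17, Pax1, a paired-box factor of the embryonic skeleton, had a log2 fold change of -0.80 and Barx2, a homeobox gene of limb mesenchyme, one of 0.41 (adjusted p = 0.118 and 0.332, edgeR). Among 20 joint and perichondrium genes, with a median of -0.05, Trpv4, a calcium channel of chondrocytes, had a log2 fold change of -0.53 and Jun, a factor of joint interzones and many other cells, one of 0.35 (adjusted p = 0.231 and 0.397, edgeR). These 4 genes were chosen by their p-values, so their lack of overlap between the groups adds nothing to those. Every knockout library lay below every wild-type library in 7 of the 29 and 4 of the 20 genes, against 6.16% of all genes. Every knockout library lay above in 2 and 1 of them, against 6.77% of all genes.

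**Figure D5:**
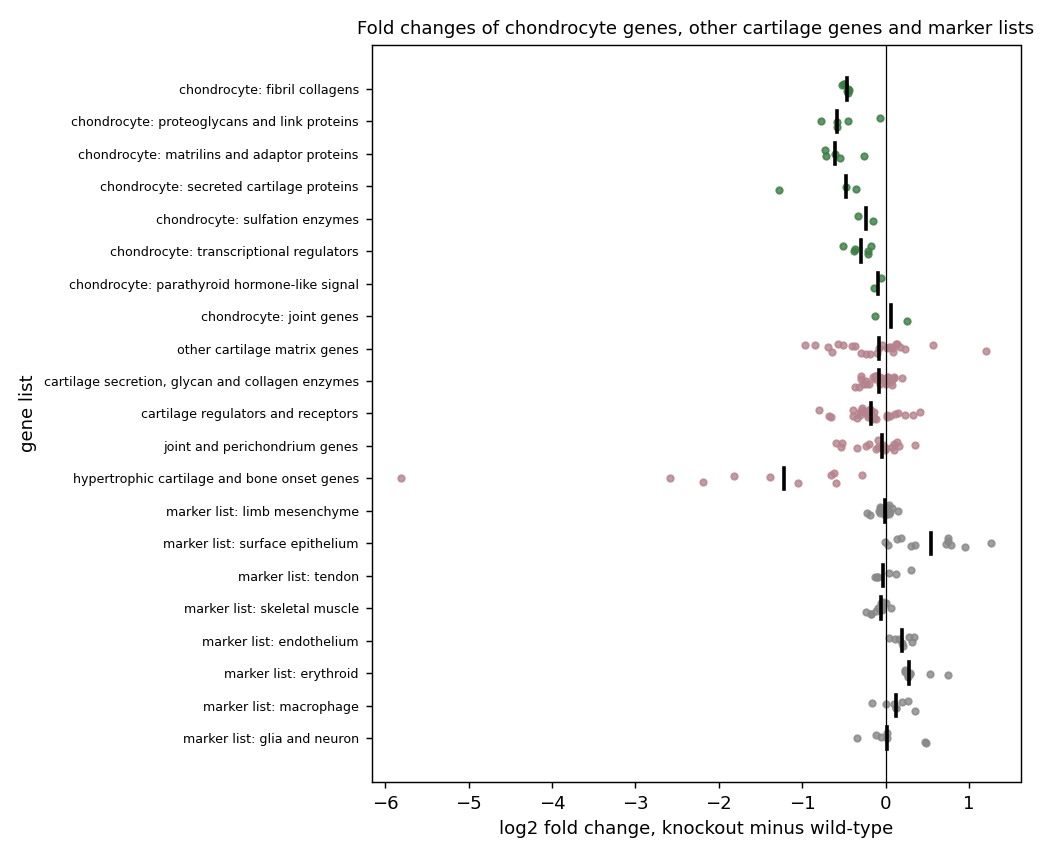
Log2 fold changes (knockout minus wild-type, horizontal axis) of single genes (points) in the roles of the 32 chondrocyte genes (green), the 5 lists of other cartilage genes (rose) and the marker lists of other cell types (grey), with the median of each list as a black bar. Vertical scatter within a row has no meaning. The matrix roles have medians between -0.61 and -0.46, hypertrophic genes -1.22, limb mesenchyme -0.003 and surface epithelium 0.54.

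Marker lists of 8 other tissues or cell types were set beside these values. Limb mesenchyme genes had a median log2 fold change of -0.003 over 13 genes, 0 of them at an unadjusted p under 0.05 in edgeR. Surface epithelium genes had a median of 0.54, with 11 of 12 positive and 5 higher at an unadjusted p under 0.05, and their summed TPM (a length-corrected share of a library) was 1250 to 2410 in wild-type and 2000 to 3010 in knockout libraries. The 8 endothelial genes were all positive with a median of 0.20 and summed TPM of 137 to 181 and 173 to 183. The 8 erythroid genes were all positive with a median of 0.28 and summed TPM of 24900 to 40500 and 26400 to 42700. The highest sum was in knockout library 3, the library lowest for most chondrocyte genes. The next highest, 40500, was in wild-type library 2, whose CPM sum over the 32 genes was the highest, at 9176. The medians of the tendon, skeletal muscle, macrophage, and glia and neuron lists were -0.026, -0.053 (10 of 12 genes negative), 0.124 and 0.017. No marker in these lists was at 0 in a whole group, and the part that the share of other cells plays in the chondrocyte values was not tested. With libraries scaled on the limb mesenchyme genes the median of the 32 genes was -0.42, and with scaling on the surface epithelium genes it was -0.94 where the median of all genes was -0.573.

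Splits that run across the genotypes were set beside the values as well. With a term for Y-linked expression, which separates wild-type libraries 2 and 3 from the other 4, the median of the 32 genes was -0.299 and 26 were negative. In that fit 8 of the 32 were lower at an unadjusted p under 0.05 in edgeR, but so were 7.12% of all genes. With a term for mean transcript length it was -0.396, with 31 negative. Only wild-type libraries were high for Y-linked genes, so genotypes cannot be compared within that class, and the other class holds only 1 wild-type library.

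Of the 32 genes, 24 had a promoter entry in RefSeq (GRCm38.p6). The SOX-type motifs ACAAAG and ACAATG, searched on both strands in the 250 bases before the start, were found in 4 of the 24 (16.7%), namely Epyc, Pth1r, Sox5 and Sox6, and in 8292 of 32851 promoters of all genes (25.2%). The matches lay 237, 38, 154 and 113 bases before the RefSeq start of Epyc, Pth1r, Sox5 and Sox6. The Sox5 entry is a start inside the gene, 834871 bases from the annotated gene start, and the other 23 entries lay at most 1408 bases from it (Col27a1). A match is only a match of letters in this window.

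The authors' deposited table lists 941 genes with p-values up to 0.0506, and 13 of the 32 genes are among them. In the authors' deposited table all 13 have negative fold changes, against 45.3% of all genes listed there, and Comp is the only 1 of them with an FDR under 0.05. The authors' deposited table also lists 24 of the other cartilage genes, 21 of them as lower. The share of all genes tested by the authors that reached this list is not given here. The counts of 13 and 24 listed genes therefore cannot be read as particular to cartilage.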

How the data were processed

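Reads were checked with FastQC and assigned to transcripts with kallisto on build mm10, per the submitters' processing notes; the kallisto version is not given in the sources used here. The 6 deposited tables hold, per the file headers, an estimated count (not scaled) and a TPM (scaled by kallisto for transcript length and depth) for 111462 transcripts. A further table, the authors' own comparison as deposited, holds log2 fold changes, log2 CPM, a likelihood ratio score, p-values and an FDR (its name gives edgeR).

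Transcripts were matched by unversioned identifier to GENCODE M21. Of these 110203 matched, and the 1259 others held 0.504% to 0.566% of counts and were left out. Estimated counts were summed per gene and rounded. edgeR 4.0.16 (R 4.3.3, TMM scaling, filterByExpr with minimum count 10 and minimum total 15, quasi-likelihood test, genotype only) was fitted to all 6 libraries, with Benjamini-Hochberg adjustment over 16938 genes and a threshold of 0.05. CPM were computed from TMM-scaled counts, except for the Y-linked sum and its threshold, which used plain library totals. Summing removes the division of reads among a gene's transcripts, but shares of single transcripts depend on kallisto's division and on coverage. Counts carry no molecular identifiers, so they may include copies of 1 molecule. TPM served only for marker sums, transcript levels and shares, the single-gene values given in TPM and an alternative with limma (offset 0.5).

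The 32 genes, the lists and the tests were chosen with earlier results of these data known. All 32 genes are named, and of each other cartilage list the 2 genes with the smallest p-values. A list is described by counts and its median, without a test. On simulated counts for these 16938 genes (3 runs, 200 changed genes), the script recovered 18.9% of genes changed 1.5-fold, 65.7% changed 2-fold and 88.4% changed 4-fold, and 8.31% of its calls were false. Alternatives were other scalings, no filter, DESeq2 1.42.0, limma 3.58.1 (voom and TPM), the replicate block, terms for Y-linked expression and transcript length, each library left out and, chosen after seeing the data, the likelihood ratio test, scaling on 2 marker lists, a Y-linked threshold of 100 CPM (that planned put all libraries in 1 class) and Col2a1 shares over the 2 full-length transcripts only.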

Additional observations from a re-analysis of the deposited data

How the results depend on the processing

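Of the 32 chondrocyte genes 0 were called by edgeR, and the count of those called lower was 3 with DESeq2, 1 with scaling on limb mesenchyme genes (Comp), 5 with scaling on surface epithelium genes (Comp, Epyc, Hapln1, Matn3 and Ucma), 1 with the likelihood ratio test (Comp) and 0 to 1 with a library left out (Col27a1 without wild-type library 1). Of the other cartilage genes the count called lower was 8 with DESeq2, 1 with the transcript length term, 2 and 13 with scaling on limb mesenchyme and surface epithelium genes, 6 with the likelihood ratio test and 0 to 2 with a library left out (2 without wild-type library 2). The count called higher was 1 with DESeq2, 1 with the likelihood ratio test and 0 to 2 with a library left out (2 without wild-type library 1). Over all genes DESeq2 called 87 lower and 212 higher, and the transcript length term 39 and 164. The fit without wild-type library 1 called 70 and 136, and that without wild-type library 2 called 13 and 32. Surface epithelium scaling moved the median of all genes well below 0, as given above. Shares of all genes called under the marker scalings and the likelihood ratio test are not given here. Counts from those fits therefore cannot be read as particular to cartilage. The median of the 32 genes was negative under every alternative run, from -0.943 with scaling on surface epithelium genes to -0.299 with the Y-linked term, and from -0.511 to -0.305 with a library left out. The Y-linked term turned Col11a1 (0.046), Hapln3 (0.051), Chst11 (0.092), Sox6 (0.13) and Trps1 (0.020) positive and gave more negative values for Snorc (-1.26), Mia (-0.70) and Pth1r (-0.40), and surface epithelium scaling turned Gdf5 to -0.26. With a library left out the log2 fold change ran from -0.13 to 0.037 for Pthlh, -0.25 to 0.013 for Pth1r, -0.31 to 0.16 for Hapln3, -0.093 to 0.45 for Gdf5, -0.31 to 0.12 for Prg4, -0.28 to 0.040 for Chst11 and -0.42 to 0.045 for Nkx3-2. The difference in Col2a1 exon 2 share (knockout minus wild-type) was 0.848 percentage points and ran from -6.44 to 5.52 with a library left out. It was negative without wild-type library 1 and, at -4.44, without knockout library 1. The cause was not tested. The labels do not say that replicate numbers pair the samples. Same-numbered libraries deviated from their group means with correlations of -0.218, -0.097 and -0.15, and differently numbered ones with -0.093 to 0.202. With so few libraries these values cannot settle whether the samples were paired. With the replicate number as a block 0 of the 32 genes were called, their median was -0.448, and over all genes 5 were called lower and 42 higher, against 14 and 59 without it. At the depth of these libraries, Ucma, Hapln3 and Prg4 rest on fewer than 150 counts per library.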

Other observations

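Some gene totals hide transcripts that differ widely between libraries of 1 genotype. Matn4 had a gene total of 260, 364 and 296 CPM in wild-type and 271, 282 and 215 CPM in knockout libraries. It has 5 quantified transcripts, and those of 2304 and 2243 bases are given here. The transcript of 2304 bases measured 0.169, 143 and 52.1 CPM in wild-type and 148, 104 and 58.3 CPM in knockout libraries. The transcript of 2243 bases measured 148, 166 and 174 against 88.0, 137 and 96.4 CPM. In wild-type library 1 both together fell well short of the gene total of 260 CPM, and other Matn4 transcripts held the rest. The near absence of the longer transcript from wild-type library 1 is thus a difference in estimated counts between wild-type libraries. Whether it reflects how kallisto divided the reads or which transcripts were present was not tested.

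Short transcripts weigh more in TPM than in counts. A retained-intron transcript of Cnmd, 659 bases long, was at 79.2 TPM in wild-type library 1 and 3.81 TPM in wild-type library 2, where the 2 main protein-coding transcripts were at 31.8 and 37.1 TPM and at 48.6 and 39.1 TPM. In Snorc most counts belong to a transcript with no coding annotation, 404, 211 and 207 estimated counts in wild-type and 176, 228 and 273 in knockout libraries, against 47.2, 14.02 and 25.5 and 13.5, 27.7 and 35.9 for the protein-coding transcript. The coding part of the Snorc level is therefore close to the filter on low counts.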
